A study of Mus musculus with 21 samples.

Results

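Castration was examined in male mice that all received genistein, by setting 3 prostate arrays from castrated males against 3 from intact males, out of 21 arrays in the series. A probe was kept where 3 or more of the genistein experiment's 12 arrays detected it at p under 0.05, and 22332 of 45259 probes met this rule. These stood for 15406 genes, 12078 of them with a gene symbol. The castrated males received genistein under the skin for 5 days, starting 4 days after surgery, and the intact males received the same injections. The dose was 300 µg per mouse per day, or 10 µg per gram of body weight, dissolved in mineral oil (0.1 ml) that held 2% dimethylsulfoxide. The groups shared the FVB/N strain, an age of 8 to 12 weeks, and heterozygosity for a luciferase transgene that a thymidine kinase promoter with Slp-HRE2 androgen response elements drives. The gland was collected 24 hours after the final dose and its RNA was hybridised to Illumina mouse bead arrays, on which each probe sits on many beads. Neither the dissected lobes nor the number of animals behind an array is stated in the labels, so the p-values reflect sample-to-sample spread that may be technical. In what follows, castrated and intact males are the genistein-treated ones unless vehicle is named, and all levels are normalized log2 intensities.

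The prostate is an androgen-dependent secretory gland. Testosterone from the testes acts on the luminal epithelial cells, keeps them alive and drives transcripts of secreted proteins, and the gland regresses when the testes are removed. Genistein is a soy isoflavone that binds estrogen receptors. The comparison asked what the loss of the testes did to prostate transcripts while this compound was present.

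All 6 castrated arrays of the experiment lay on 1 chip and all 6 intact arrays on another, so that within the experiment the surgery and the chip cannot be told apart. Array medians of the unprocessed intensity were 99.4 to 102.5 in castrated males and 105 to 109 in intact males, and 45.0% to 46.4% of probes were detected in castrated males against 42.3% to 44.9% in intact males. Arrays of a group correlated with each other at 0.986 to 0.988 in castrated males and 0.982 to 0.983 in intact males. Castrated array 2 stood more than 2 log2 units above both other castrated arrays for 25 genes and below both for 6, whereas castrated arrays 1 and 3 did so for 5 and 4 genes in all. Svs2, a secreted protein of the seminal vesicle, read 5.97, 11.17 and 4.65 in castrated males, against 13.54, 14.05 and 13.96 in intact males. Arrays 1 and 3 thus held little of the seminal vesicle transcripts that array 2 held. For part of the lists and genes the values on castrated array 2 alone are given too. For the others only the full comparison is given, and it rests in part on arrays 1 and 3. Intact array 2 lay more than 2 log2 units below both other intact arrays for 31 genes and intact array 1 for 14. The tissue label was checked against secreted proteins of the mouse prostate: Pbsn, Msmb, Tgm4 and Spink1 were detected on all 6 arrays. The homeobox gene Hoxb13, a prostate lineage factor, was detected on only 1 array of each group.

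Promoters with a known motif near the start site are shown for 5 genes that fell. Pbsn is of the secretory protein list, and Creld2, Derl3 and Hspa5 are of the ER folding list, both described below. 9530002B09Rik is shown as 1 of the 12 largest falls, a set chosen for its falls. Each is the run of 250 bases before the RefSeq start site, read in the direction of the gene, in build GRCm38.p6. The hexamer AGAACA is 1 arm of the androgen response element, and it was searched on both strands, where it reads TGTTCT on the opposite one. It stands in capitals in the promoters of Pbsn (chrX:77853501-77853750, minus strand) and 9530002B09Rik (chr4:122689009-122689258, plus strand), a gene known only by its clone name.
Pbsn: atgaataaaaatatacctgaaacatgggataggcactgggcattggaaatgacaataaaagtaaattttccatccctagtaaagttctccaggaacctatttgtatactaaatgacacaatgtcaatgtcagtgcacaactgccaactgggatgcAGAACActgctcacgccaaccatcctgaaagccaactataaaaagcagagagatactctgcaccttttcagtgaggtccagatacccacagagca
9530002B09Rik: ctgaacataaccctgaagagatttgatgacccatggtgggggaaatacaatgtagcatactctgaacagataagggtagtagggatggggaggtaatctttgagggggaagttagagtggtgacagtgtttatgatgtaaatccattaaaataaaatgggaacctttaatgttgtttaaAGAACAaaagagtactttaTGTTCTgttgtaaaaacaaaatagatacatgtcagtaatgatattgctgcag
The ER stress element, written CCAAT, then 9 bases of any kind, then CCACG, is the motif through which unfolded-protein factors act on genes of endoplasmic reticulum (ER) folding. It stands in capitals in Creld2 (chr15:88819396-88819645), Derl3 (chr10:75893148-75893397) and Hspa5 (chr2:34771840-34772089), all on the plus strand. In Creld2 and Derl3 the match lies on the opposite strand. Both strands were searched.
Creld2: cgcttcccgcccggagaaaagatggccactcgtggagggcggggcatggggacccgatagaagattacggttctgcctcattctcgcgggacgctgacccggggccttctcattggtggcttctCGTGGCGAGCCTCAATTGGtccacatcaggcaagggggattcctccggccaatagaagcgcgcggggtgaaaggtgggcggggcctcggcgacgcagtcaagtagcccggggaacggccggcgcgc
Derl3: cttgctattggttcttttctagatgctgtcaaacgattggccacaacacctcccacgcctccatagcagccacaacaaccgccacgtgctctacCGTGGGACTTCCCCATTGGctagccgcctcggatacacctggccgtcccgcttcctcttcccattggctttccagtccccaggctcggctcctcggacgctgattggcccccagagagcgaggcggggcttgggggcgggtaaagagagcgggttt
Hspa5: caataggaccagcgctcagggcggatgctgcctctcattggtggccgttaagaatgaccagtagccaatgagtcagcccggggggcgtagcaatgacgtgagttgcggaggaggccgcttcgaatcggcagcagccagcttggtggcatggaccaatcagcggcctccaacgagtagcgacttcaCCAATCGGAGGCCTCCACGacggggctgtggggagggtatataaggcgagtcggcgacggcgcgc
Among genes of the ER folding list with a promoter in the RefSeq table, 9 of 25 held the ER stress element (36.0%): Creld2, Derl3, Hspa5, Pdia6, Hsp90b1, Dnajc3, Calr, Syvn1 and Ero1b. It was present in 0.13% of all 27025 genes of the RefSeq set and in 0.145% of the 9671 tested genes with a promoter. Among called genes it was found in 10 of 1140 that were lower (0.877%) and in 2 of 1049 that were higher (0.191%). The 9 folding genes named above were all called lower and are among these 10. The share of the lower genes is thus no separate observation. The hexamer AGAACA was found in 7 of 14 promoters of prostate secretory proteins and in 1 of 18 of the androgen target list (5.56%). All promoters in the table held it in 18.2% of cases, tested genes in 13.6%, and called lower genes in 13.3%. Of 1049 called higher genes 157 held it. The full element, AGAACA and TGTTCT with 3 bases between them, was present in 3 of all 27025 promoters and in none of the 14 and 18. A match describes letters in these windows and is not evidence of a bound site.

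Castration was accompanied by differences in a large part of the measured transcripts. Of 15406 genes, 3401 passed the limma test at an adjusted p under 0.05 (22.1%), 1722 of them higher (11.2%) and 1679 lower (10.9%) in castrated males. At least 1 log2 unit was passed by 402 called genes that were higher (2.61%) and 533 that were lower (3.46%). The castrated and intact arrays did not overlap for 5912 genes (38.4%), 3220 of them higher (20.9%) and 2692 lower (17.5%). The median difference over all genes was 0.04 log2 units. Without castrated array 1 the count was 2260, and without intact array 2 it was 2216. With every kept probe tested on its own, 4527 of 22332 passed (20.3%). With castrated array 2 as the sole castrated array, and its spread assumed to equal that of the other groups, 839 genes passed (5.45%), 341 higher (2.21%) and 498 lower (3.23%). All 3401 called genes had the same direction on array 2 alone as in the full comparison. Array 2 is 1 of the 3 castrated arrays from which they were called. The selection itself favours this agreement, which is no independent support.

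**Figure D1:**
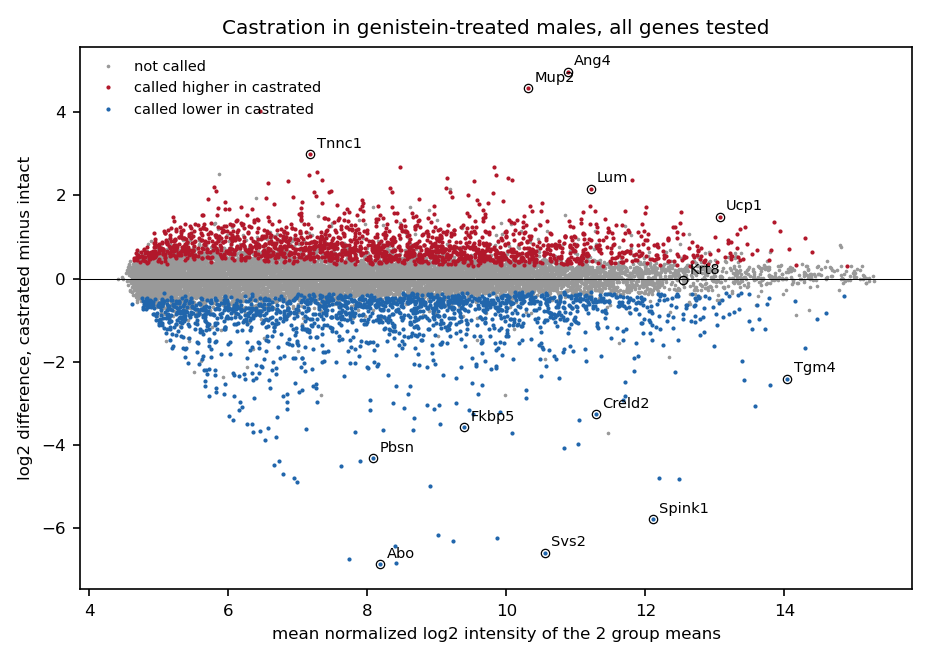
Log2 difference, castrated minus intact genistein-treated males (vertical axis), against the average of both groups' mean normalized log2 intensity (horizontal axis), 1 point for each of 15406 genes, red where called higher, blue where called lower and grey where not called. Ringed genes are described in the text. The largest falls reach below -6 and the largest rises lie just under 5.

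The intact arrays of the estradiol experiment lay on other chips, which allowed a description, chosen after the data were seen, that adds arrays from further intact chips. With the 21 arrays normalized together, all 3 castrated arrays lay above all 11 intact arrays not given estradiol, from 4 chips, for 1091 of the 1722 genes called higher (63.4%). They lay below all 11 for 962 of the 1679 called lower (57.3%). Over all genes tested the shares were 9.8% above and 7.43% below. The genes were called from these castrated arrays and from 3 of the 11 intact ones, and 6 of the 11 lie on the single intact chip of the experiment, so the selection itself raises the shares among called genes and they are no independent support. Probasin (Pbsn) read 6.10 to 6.31 on the castrated arrays in that normalization, against 9.08 to 10.19 on the 5 vehicle arrays of the estradiol experiment and 10.11 to 10.97 on the intact genistein arrays. Those 5 males belonged to another experiment, and the castrated arrays still lie on 1 chip.

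Abo and a set of secreted proteins led the falls. Abo, the glycosyltransferase of the ABO blood groups, read 5.09, 4.35 and 4.80 in castrated males, against 11.57, 11.85 and 11.44 in intact males. The difference of -6.87 log2 units had an SE of 0.27 and an adjusted p of 4.58e-08. The probe was detected on only 1 of the 3 castrated arrays, so its castrated level lies at the background and the size of the fall is uncertain. Wfdc3, of a protease inhibitor family and detected on 2 of the 3 castrated arrays, read 5.18, 5.16 and 4.63 in castrated males, against 11.62, 12.65 and 11.24 in intact males, a log2 difference of -6.85 (SE 0.32, adjusted p = 1.91e-07). For 9530002B09Rik the levels were 6.38, 5.98 and 5.88 in castrated males and 12.29, 12.71 and 12.15 in intact males, with a difference of -6.30 (SE 0.19, adjusted p = 3.87e-09). The secretoglobin Scgb2b27 differed by -6.25 (SE 0.63, adjusted p = 5.88e-05) and the apolipoprotein Apof by -6.16 (SE 0.28, adjusted p = 1.91e-07). Scgb2b27 ranged between 11.52 and 14.08 among the intact arrays, and for both genes the lowest intact array lay above the highest castrated one by more than 4 log2 units. Spink1, a trypsin inhibitor and among the brightest transcripts of the intact gland, read 10.32, 8.02 and 9.31 in castrated males, against 15.09, 14.97 and 14.92 in intact males. Its difference was -5.77 (SE 0.55, adjusted p = 3.84e-05), and array 2, high in seminal vesicle transcripts, was the lowest of the castrated arrays for it. Tcaf3, of a family that binds a cold-sensing ion channel, differed by -4.99 (SE 0.43, adjusted p = 1.99e-05).

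Of the other 5 genes among the 12 largest falls, 2 were not detected in castrated males. The beta-defensin Defb10 read 4.41, 4.45 and 4.73 in castrated males, none of them above background, against 9.36, 9.76 and 9.18 in intact males. Computed against the lowest signal detected on each castrated array, it was at least 23.5-fold lower (adjusted p = 1.39e-08). Serpina1f, a serpin known from the epididymis, was likewise undetected at 4.68, 4.51 and 4.44 in castrated males, against 6.22, 10.67 and 11.15 in intact males, and was at least 22.1-fold lower (adjusted p = 0.00496). Intact array 1 was far below the other 2 intact arrays for it, and with castrated array 2 alone the adjusted p was 0.0952. The same intact array was more than 2 log2 units below both others for 12 further genes with a symbol, among them the beta-defensins Defb43 and Defb30 and the water channels Aqp2 and Aqp9 (named after their values were seen). Whether another tissue in the dissection contributed to Serpina1f was not tested. Svs2, Svs4 and Svs5 completed the 12 and are described with the seminal vesicle transcripts.

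**Figure D2:**
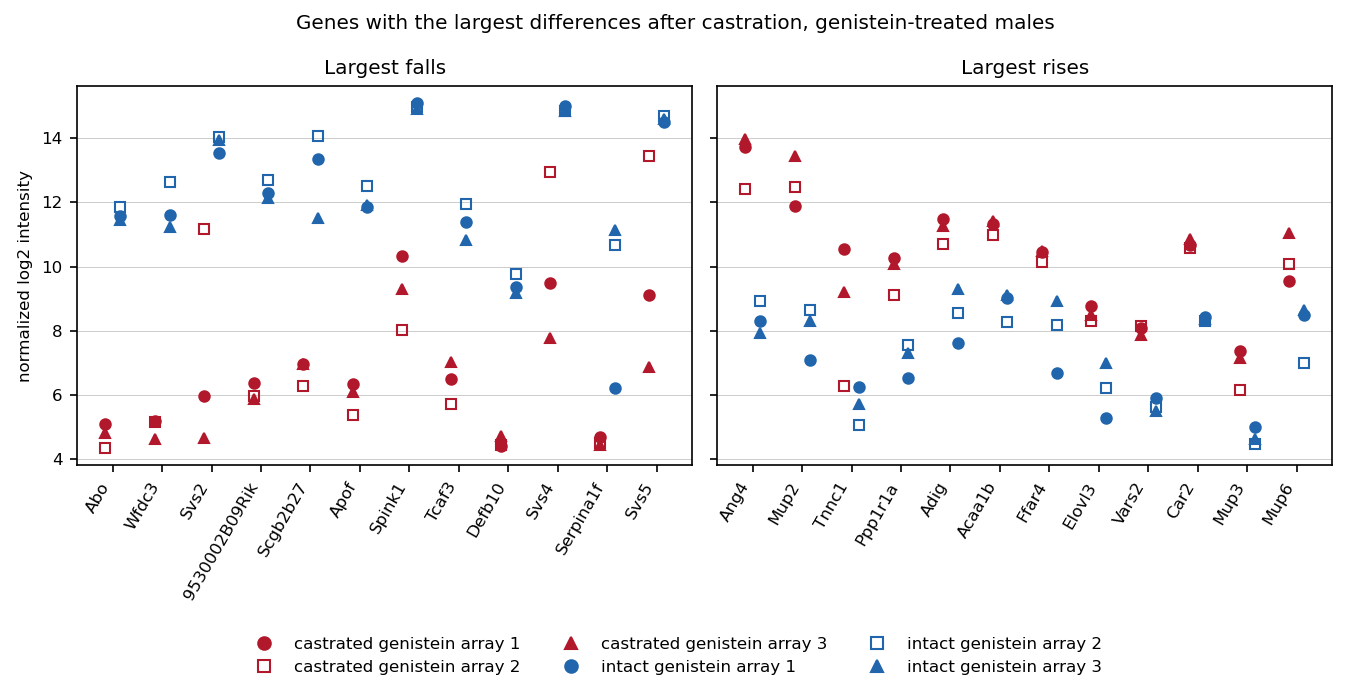
Normalized log2 intensity (vertical axis) of the 12 genes with the largest falls (left) and the 12 with the largest rises (right), 1 symbol per array, with castrated genistein males in red left of intact genistein males in blue, and array 2 of each group as an open square. The groups do not overlap for any of the 24 genes, and castrated array 2 stands apart from arrays 1 and 3 in Svs2, Svs4, Svs5 and Tnnc1.

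Of 20 measured secretory proteins of the mouse prostate, 17 fell in castrated males and none rose, against a background of 10.9% of all genes lower. The median difference of the 20 was -2.68 log2 units. On castrated array 2 alone 14 were called lower, with a median of -3.12. Pbsn, the classical androgen-driven marker of mouse prostate epithelium, read 5.89, 5.84 and 6.05 in castrated males, against 10.13, 10.72 and 9.86 in intact males, a difference of -4.31 (SE 0.31, adjusted p = 6.22e-06). No array lay between the groups, which were more than 3 log2 units apart. Msmb, the beta-microseminoprotein of seminal fluid, read 12.57, 11.93 and 13.05 in castrated males, against 15.15, 15.01 and 15.06 in intact males, and the transglutaminase Tgm4 read 12.95, 12.74 and 12.83 in castrated males, against 15.14, 15.34 and 15.26 in intact males (both named after their values were seen). These transcripts fell by 2.56 and 2.41 on the log2 scale and stayed among the brighter ones of the castrated gland. The other 3 members were not called, with Pip at -2.81 (SE 1.12, adjusted p = 0.0957), Ceacam10 at -0.68 (SE 0.56, adjusted p = 0.419) and Defb37 at -0.30 (SE 0.21, adjusted p = 0.335). Pip, prolactin-induced protein, read 7.43, 8.29 and 9.99 in castrated males, against 13.14, 8.39 and 12.60 in intact males, so that intact array 2 fell among the castrated arrays. The summed linear signal of the 20 was 24900 to 35700 in castrated males and 172000 to 191000 in intact males. In whole tissue, fewer luminal cells and less RNA per luminal cell cannot be told apart.

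Keratins of the luminal epithelium did not pass the test. Krt8 read 12.42, 12.70 and 12.45 in castrated males, against 12.77, 12.38 and 12.55 in intact males, a difference of -0.04 (SE 0.13, adjusted p = 0.842). Krt18 differed by -0.05 (SE 0.14, adjusted p = 0.844). Of 14 measured luminal markers, 1 rose, 4 fell and 9 were not called, with a median of -0.19 that became 0.07 on array 2 alone. The fallers were Prom1 (-1.81), a surface marker of luminal progenitors, the epithelial factor Spdef (-1.41), the junction protein Cldn3 (-0.81) and the pioneer factor Foxa1 (-0.77). Their adjusted p-values were 0.000756, 0.000315, 0.0212 and 0.0126. Elf3, an epithelial transcription factor, was the 1 that rose, by 0.60 (adjusted p = 0.0296). Of 12 basal markers, the cell cycle brake Sfn rose (0.94, adjusted p = 0.0298), the galectin Lgals7 fell (-0.48, adjusted p = 0.0405) and 10 were not called. These 2 calls held under 13 and 10 of 19 alternative settings of the processing. The median of the 12 was 0.28, and 0.35 on array 2 alone. The luminal and basal counts stand against 11.2% of all genes higher and 10.9% lower.

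Known androgen target genes were called in both directions, against a background of 10.9% of all genes lower and 11.2% higher. Of 25 measured, 10 fell and 4 rose, with a median of -0.27, and -0.30 on array 2 alone. The 4 rises are few beside that background, and nothing is read from their number. Fkbp5, a co-chaperone of steroid receptors and a direct target, read 7.36, 7.44 and 8.01 in castrated males, against 11.04, 11.62 and 10.87 in intact males, a difference of -3.57 (SE 0.26, adjusted p = 6.77e-06). Gnmt, which consumes the methyl donor S-adenosylmethionine, differed by -2.79 (SE 0.27, adjusted p = 4.47e-05), and its 3 probes ranged from -2.79 to -0.14. The prostaglandin dehydrogenase Hpgd differed by -1.87 (SE 0.25, adjusted p = 0.000407) and the membrane protease Tmprss2 by -0.67 (SE 0.14, adjusted p = 0.00682). Among the risers, Nnmt, a methyltransferase of nicotinamide, differed by 1.80 (SE 0.41, adjusted p = 0.00857). It read 10.83, 9.63 and 11.04 in castrated males, against 8.0, 9.14 and 8.96 in intact males, with the smallest gap on castrated array 2.

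Genes known to rise when androgen is withdrawn did so in part: 9 of 22 measured rose and 2 fell, with a median of 0.34, and on array 2 alone 6 rose and none fell. The background was 11.2% of all genes higher. Lum, the matrix proteoglycan lumican, read 12.08, 12.62 and 12.19 in castrated males, against 10.0, 9.80 and 10.60 in intact males, a difference of 2.16 (SE 0.23, adjusted p = 7.95e-05). Igfbp3, which binds insulin-like growth factors, read 10.62, 10.63 and 10.35 in castrated males, against 8.68, 8.23 and 8.99 in intact males, a difference of 1.89 (SE 0.20, adjusted p = 8.48e-05). Both groups were narrow for these genes and lay more than 1 log2 unit apart. The Wnt-pathway protein Dkk3 rose by 1.38 (adjusted p = 0.000471), whereas Igfbp2, another binding protein of the same growth factors, fell by 1.58 on the log2 scale (adjusted p = 0.00071).

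Estrogen receptors are the known binding partners of genistein. Esr1, the gene of receptor alpha, read 6.96, 6.58 and 7.33 in castrated males, against 6.62, 7.12 and 6.92 in intact males, and its difference of 0.07 (SE 0.25, adjusted p = 0.868) did not pass and changed sign without castrated array 3 (-0.12) or intact array 1 (-0.06). Esr2, of receptor beta, read 5.13, 4.46 and 5.35 in castrated males, against 5.87, 5.79 and 4.94 in intact males, a difference of -0.56 (SE 0.31, adjusted p = 0.221) with overlapping groups. Of 12 measured receptors and steroid enzymes, Hsd17b4 and Akr1c18 rose and Gper1 and Sult1e1 fell, where 11.2% of all genes were higher and 10.9% lower. The median of the 12 was 0.13, and 0.07 on array 2 alone. Gper1, a membrane receptor linked to estrogen, differed by -1.59 (SE 0.27, adjusted p = 0.00179). Hsd17b4, a peroxisomal enzyme that also oxidises estradiol, differed by 0.61 (SE 0.11, adjusted p = 0.00252). Sult1e1, the estrogen sulfotransferase, was not detected in castrated males and was at least 1.73-fold lower (adjusted p = 0.0049). Akr1c18, which inactivates progesterone, was not detected in intact males and was at least 1.23-fold higher (adjusted p = 0.033). Its call held under 9 of 17 alternative settings of the processing. Of 17 genes known as estrogen-responsive, 5 fell and 1 rose, against the same background. The scaffold Pdzk1 differed by -1.94 (SE 0.21, adjusted p = 0.000106), the coactivator Greb1 by -1.90 (SE 0.27, adjusted p = 0.000671) and the connexin Gjb2 by -1.21 (SE 0.21, adjusted p = 0.00242). The list's median was -0.52, and -0.05 on array 2 alone, where 2 fell and 1 rose.

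Genes of the secretory pathway fell almost throughout, against a background of 10.9% of all genes lower and 11.2% higher. Of 27 measured genes of ER protein folding 23 fell and none rose, with a median of -1.10. Of 44 genes of translocation into the ER and vesicle transport 39 fell and none rose, with a median of -0.80, and of 35 glycosylation enzymes 25 fell and 2 rose, with a median of -0.63. On array 2 alone the medians of the 3 lists were -0.95, -0.70 and -0.59. Creld2, a folding protein of the ER, read 9.74, 9.59 and 9.67 in castrated males, against 13.17, 13.31 and 12.28 in intact males, a difference of -3.26 (SE 0.22, adjusted p = 4.52e-06). Derl3, which takes part in removing misfolded proteins from the ER, read 6.42, 6.46 and 6.48 in castrated males, against 10.09, 9.76 and 9.0 in intact males, a difference of -3.17 (SE 0.21, adjusted p = 4.52e-06). The castrated arrays agreed to within 0.2 log2 units for both genes. Hspa5, the main ER chaperone, read 5.26, 5.70 and 5.29 in castrated males, against 7.52, 7.74 and 7.39 in intact males, a difference of -2.13 (SE 0.23, adjusted p = 0.000107) (shown for its promoter, after its values were seen). The lowest detected signals of castrated arrays 1, 2 and 3 were 4.91, 4.85 and 4.86. Its castrated readings thus lay near the background, and the size of its fall is uncertain. Sdf2l1 and Fkbp11, further ER folding factors, differed by -2.57 (SE 0.29, adjusted p = 0.000151) and -2.33 (SE 0.18, adjusted p = 1.05e-05).

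In transport, the retrieval receptor Kdelr3 differed by -2.12 (SE 0.22, adjusted p = 6.78e-05) and the vesicle cargo protein Tmed3 by -1.47 (SE 0.21, adjusted p = 0.000646). Spcs3 of the signal peptidase and Srpr, the receptor of the signal recognition particle, differed by -1.46 (SE 0.24, adjusted p = 0.00178) and -1.35 (SE 0.12, adjusted p = 3.34e-05). Beside Abo, the glycosylation list fell most in Man1a, a mannosidase of the Golgi (-2.09, SE 0.25, adjusted p = 0.000231), Nans, which makes sialic acid (-1.67, SE 0.16, adjusted p = 3.84e-05), and the fucosyltransferase Fut2 (-1.39, SE 0.23, adjusted p = 0.00185). The 3 medians on array 2 alone were within 0.2 log2 units of the full values, which include array 2. Seminal vesicle transcripts were lower on castrated arrays 1 and 3 than on array 2. Their summed signal on array 2, 58000, was also below the 99900 to 110000 of intact males. Whether seminal vesicle content had a part in these falls was not tested.

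The supply side of protein synthesis moved less evenly, against a background of 11.2% of all genes higher and 10.9% lower. Of 23 genes of amino acid synthesis and of the stress factor ATF4, 10 fell and 3 rose. Their median was -0.44, and -0.50 on array 2 alone. Mthfd2, a mitochondrial enzyme of folate metabolism, read 7.69, 7.84 and 8.11 in castrated males, against 11.04, 11.28 and 10.84 in intact males, a difference of -3.17 (SE 0.16, adjusted p = 3.85e-07). The cystine carrier Slc7a11 differed by -1.61 (SE 0.27, adjusted p = 0.00189), with its other probe at -0.05, and the serine-synthesis enzyme Phgdh differed by -1.25 (SE 0.16, adjusted p = 0.000267). Of 18 transfer RNA synthetases 4 fell, with Wars, for tryptophan, at -1.54 (SE 0.18, adjusted p = 0.000198). The median of the 18 was -0.22, and -0.24 on array 2 alone. Cytosolic ribosomal proteins stood in contrast in their counts: of 32 measured, 1 (Rpl22, 0.44, adjusted p = 0.0172) was called, and the median was 0.05, close to the 0.04 of all genes. Of 24 ribosome biogenesis genes 2 rose, Tcof1 (0.71, adjusted p = 0.0254) and Ncl (0.47, adjusted p = 0.026). Of 9 polyamine genes 5 fell and none rose. Polyamines are abundant in prostatic fluid. Odc1, the rate-limiting enzyme of their synthesis, read 10.41, 10.47 and 10.62 in castrated males, against 11.63, 11.67 and 11.37 in intact males, a difference of -1.06 (SE 0.12, adjusted p = 0.000149), and Srm, the spermidine synthase, differed by -1.38 (SE 0.17, adjusted p = 0.000258). The arginase Arg2, which supplies the precursor ornithine, fell by 2.08 on the log2 scale (adjusted p = 0.000122).

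Zinc is concentrated in the prostate and secreted with its fluid. Of 20 zinc transporters and metallothioneins 9 fell and none rose, against 10.9% of all genes lower and 11.2% higher. The median of the 20 was -0.39, and -0.60 on array 2 alone. Slc30a2, a zinc exporter into vesicles, read 7.16, 6.84 and 6.97 in castrated males, against 10.30, 10.69 and 10.02 in intact males, a difference of -3.35 (SE 0.31, adjusted p = 3.44e-05). Slc30a10, an exporter of the same family known for manganese, was not detected in castrated males and was at least 4.8-fold lower (adjusted p = 9.72e-07). The metallothionein Mt2 differed by -1.92 (SE 0.31, adjusted p = 0.00148) and the transporter Slc39a11 by -1.54 (SE 0.19, adjusted p = 0.000216).

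The largest rises were in a mixed set of genes. Ang4, a ribonuclease of the angiogenin family with antimicrobial activity in the gut, read 13.71, 12.42 and 13.98 in castrated males, against 8.32, 8.92 and 7.94 in intact males. It was 31.5-fold higher, a log2 difference of 4.98 (SE 0.43, adjusted p = 1.99e-05). Mup2, a major urinary protein that carries pheromones, read 11.88, 12.49 and 13.43 in castrated males, against 7.08, 8.66 and 8.31 in intact males, a difference of 4.59 (SE 0.53, adjusted p = 0.000157). Its 3 probes were all called higher, at 1.49 to 4.59, and Mup3 and Mup6 differed by 2.20 (SE 0.26, adjusted p = 0.000201) and 2.19 (SE 0.48, adjusted p = 0.00765). Major urinary protein genes are nearly identical copies, so the split of signal between them is uncertain. The carbonic anhydrase Car2 read 10.67, 10.58 and 10.86 in castrated males, against 8.44, 8.30 and 8.36 in intact males, a difference of 2.34 (SE 0.17, adjusted p = 6.67e-06) with little spread in either group. Vars2, the mitochondrial valyl-tRNA synthetase, differed by 2.36 (SE 0.22, adjusted p = 3.41e-05), and Ppp1r1a, an inhibitor of protein phosphatase 1, by 2.68 (SE 0.30, adjusted p = 0.000124). Tnnc1, the troponin C of slow and cardiac muscle, read 10.55, 6.29 and 9.20 in castrated males, against 6.24, 5.07 and 5.72 in intact males. Its difference of 3.0 (SE 0.79, adjusted p = 0.0181) was carried by castrated arrays 1 and 3, and on array 2 alone it was 0.61 (adjusted p = 0.473). Myl2, a myosin light chain of the same muscle types, followed it at 11.21, 4.50 and 9.68 in castrated males, against 4.42, 4.31 and 4.58 in intact males (named after its values were seen). The summed signal of 14 skeletal muscle markers was 256000, 175000 and 222000 on castrated arrays 1, 2 and 3, and its part in Tnnc1 was not tested.

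The other 4 of the 12 largest rises are known from fat or lipid handling, and they moved with adipocyte markers. Adig, adipogenin, read 11.50, 10.72 and 11.27 in castrated males, against 7.61, 8.55 and 9.30 in intact males, a difference of 2.68 (SE 0.39, adjusted p = 0.000665). The fatty acid receptor Ffar4 differed by 2.43 (SE 0.50, adjusted p = 0.00534), the elongase Elovl3 of brown fat by 2.37 (SE 0.50, adjusted p = 0.00607) and the peroxisomal thiolase Acaa1b by 2.43 (SE 0.31, adjusted p = 0.000301). Of 10 measured adipocyte markers 7 rose and none fell, against 11.2% of all genes higher. Their median was 1.16, and their summed linear signal was 64900 to 93100 in castrated males and 31400 to 47700 in intact males. Of the 10, Retn was not detected on intact arrays, and the others were detected on arrays of both groups. Adipoq, the hormone adiponectin, read 13.33, 12.79 and 13.39 in castrated males, against 10.77, 12.25 and 12.47 in intact males. Ucp1, the uncoupling protein of brown fat, read 14.02, 13.74 and 13.70 in castrated males, against 11.71, 12.54 and 12.73 in intact males. The lipid-droplet coat protein Plin1 differed by 1.45 (SE 0.39, adjusted p = 0.021) and the master factor Pparg by 1.37 (SE 0.35, adjusted p = 0.0169). Markers of fat were thus present on all 6 arrays, with the highest sum on castrated array 1 and the lowest on intact array 1.

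Genes of fatty acid synthesis and of the citrate cycle rose together with these markers. Of 18 genes of fatty acid synthesis 9 rose and none fell, with a median of 1.06, where 11.2% of all genes were higher. Of 23 genes of the citrate cycle and citrate handling 11 rose and none fell, with a median of 0.52. Fasn, fatty acid synthase, read 8.99, 8.22 and 8.14 in castrated males, against 6.15, 6.81 and 7.69 in intact males, a difference of 1.57 (SE 0.45, adjusted p = 0.0263). Thrsp, a lipogenic factor, and Agpat2, an enzyme of triglyceride synthesis, differed by 1.72 (SE 0.33, adjusted p = 0.00373) and 1.63 (SE 0.36, adjusted p = 0.00753). Pdk4, which shuts off pyruvate dehydrogenase, differed by 1.74 (SE 0.40, adjusted p = 0.00911), and the mitochondrial citrate carrier Slc25a1 by 1.37 (SE 0.31, adjusted p = 0.00866). Acly, which cleaves citrate for lipid synthesis, read 14.05, 13.85 and 13.68 in castrated males, against 12.23, 12.64 and 13.44 in intact males, a difference of 1.08 (SE 0.27, adjusted p = 0.015). On array 2 alone no member of the adipocyte, fatty acid or citrate lists was called, with medians of 0.83, 0.83 and 0.45. Of 37 genes of oxidative phosphorylation 5 rose and 1 fell, a share near the 11.2% higher and below the 22.1% called among all genes, with cytochrome c (Cycs) at 0.82 (SE 0.20, adjusted p = 0.0135). The part that the higher adipocyte signal had in the rises of these metabolic genes was not tested. Of 17 cholesterol synthesis genes, Nsdhl (0.79) and Pmvk (0.74) rose and Ebp (-0.52) fell.

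**Figure D3:**
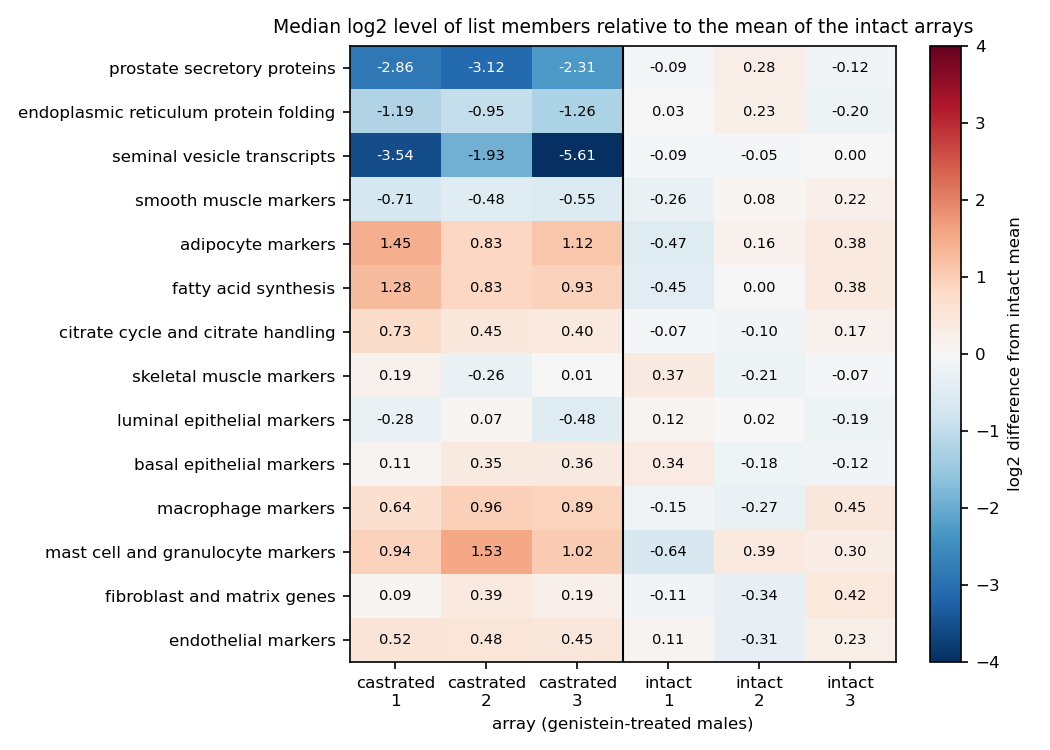
Median log2 level of the members of 14 gene lists on each array, relative to the mean of the 3 intact genistein arrays (colour and printed value), with the castrated genistein arrays left of the intact genistein arrays. Secretory proteins lie between -3.12 and -2.31 on the castrated arrays, whereas seminal vesicle transcripts range from -5.61 on array 3 to -1.93 on array 2, and adipocyte markers are highest on castrated array 1 (1.45) and lowest on intact array 1 (-0.47).

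Seminal vesicle transcripts varied widely between the castrated arrays. Svs4 read 9.48, 12.96 and 7.78 in castrated males, against 14.99, 14.84 and 14.84 in intact males, and Svs5 read 9.10, 13.45 and 6.86 in castrated males, against 14.50, 14.68 and 14.59 in intact males. Both encode proteins of the copulatory plug. Their differences were -4.82 (SE 1.02, adjusted p = 0.00608) and -4.79 (SE 1.13, adjusted p = 0.0112), and on array 2 alone they were -1.93 (adjusted p = 0.178) and -1.14 (adjusted p = 0.0198). Svs2 differed by -6.59 (SE 1.17, adjusted p = 0.00246), and by -2.68 on array 2 alone (adjusted p = 0.00034). Pate4, a secreted protein of the seminal vesicle, differed by -3.07 (SE 0.95, adjusted p = 0.0381), but by -0.05 on array 2 alone (adjusted p = 0.907). Pate6 read 5.77, 11.22 and 4.38 in castrated males, against 4.46, 4.53 and 4.82 in intact males, where it was not detected. The summed signal of the 7 measured transcripts was 4470, 58000 and 1160 on castrated arrays 1, 2 and 3, and 99900 to 110000 in intact males. Other genes high on array 2 alone (named after their values were seen) included Cd52, at 10.17, 14.21 and 9.83 in castrated males and 12.60, 13.57 and 13.67 in intact males, and Lcn2, at 8.18, 12.13 and 8.19 in castrated males and 10.64, 10.73 and 10.80 in intact males. Cd52 is known from lymphocytes and from male reproductive epithelia. Whether the dissection of the seminal vesicle differed between arrays was not tested.

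Among stromal markers those of smooth muscle fell, against a background of 10.9% of all genes lower and 11.2% higher. Of 14 smooth muscle markers 8 fell and none rose, with a median of -0.62 and a summed signal of 55000 to 75700 in castrated males and 83500 to 110000 in intact males. Actg2, the actin of visceral smooth muscle, read 11.81, 12.63 and 12.07 in castrated males, against 13.33, 14.13 and 13.95 in intact males, a difference of -1.63 (SE 0.24, adjusted p = 0.000831). The contractile proteins Cnn1 and Tagln differed by -1.90 (SE 0.29, adjusted p = 0.000879) and -1.57 (SE 0.22, adjusted p = 0.000569). On array 2 alone 2 of the 14 were called lower. Of 22 fibroblast and matrix genes 6 rose and none fell, with a median of 0.23, and besides Lum the collagen Col14a1 (1.58, SE 0.25, adjusted p = 0.00116) and vimentin, Vim (1.07, SE 0.21, adjusted p = 0.00411), rose. On array 2 alone 4 of the 22 were called higher. Of 14 endothelial markers 3 rose and none fell, with the junction protein Cldn5 at 1.23 (SE 0.22, adjusted p = 0.00223). Of 14 skeletal muscle markers 1, the myosin Myh1, was called (-1.61, SE 0.36, adjusted p = 0.0081); the list's summed signal was 175000 to 256000 in castrated males and 189000 to 257000 in intact males, so these markers were bright on all 6 arrays. Markers of nerve and blood gave 1 call each, from which nothing is read beside the background. Of 8 nerve markers Uchl1, a neuronal ubiquitin hydrolase, rose (0.91, adjusted p = 0.0103), and of 5 red blood cell genes Bpgm fell (-0.83, adjusted p = 0.0158). Of 7 urothelial markers 3 rose and 1 fell, with the plaque protein Upk3b at 1.49 (SE 0.40, adjusted p = 0.0209).

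Markers of immune cells were higher in castrated males, against a background of 11.2% of all genes higher and 10.9% lower. Of 15 macrophage markers 9 rose and none fell, with a median of 0.73, and 5 were called on array 2 alone. Aif1, a calcium-binding protein of macrophages, read 8.25, 8.23 and 7.85 in castrated males, against 6.77, 6.38 and 6.81 in intact males, a difference of 1.46 (SE 0.21, adjusted p = 0.000697). The lysozyme Lyz2 differed by 1.30 (SE 0.22, adjusted p = 0.00189) and the signalling adaptor Tyrobp by 1.16 (SE 0.19, adjusted p = 0.00151). Of 9 mast cell and granulocyte markers 6 rose and none fell, with a median of 1.22. The mast cell protease Cma1 read 8.14, 8.44 and 8.02 in castrated males, against 6.18, 7.34 and 6.99 in intact males, a difference of 1.36 (SE 0.25, adjusted p = 0.00275), and the related Mcpt4 differed by 1.40 (SE 0.29, adjusted p = 0.00534). Intact array 1 was the lowest of the 6 for both proteases. Of 8 lymphocyte markers 4 rose, among them the T-cell receptor chain Cd3e (1.35, SE 0.25, adjusted p = 0.00292), and Cd8b1 fell. Of 10 genes of MHC class II presentation 6 rose, with H2-Ab1 at 1.38 (SE 0.28, adjusted p = 0.00484) and the invariant chain Cd74 at 1.30 (SE 0.28, adjusted p = 0.00626). Of 25 complement and chemokine genes 12 rose and 2 fell. The chemokine Cxcl15 read 9.27, 9.38 and 9.58 in castrated males, against 8.05, 6.55 and 7.11 in intact males, a difference of 2.18 (SE 0.37, adjusted p = 0.00183), whereas complement C7 differed by -2.04 (SE 0.16, adjusted p = 8.75e-06), with its other probe at -0.31. Of 19 interferon response genes 3 rose and 2 fell, a total near the 22.1% of all genes called, from which nothing is read. Those that fell were Stat2 (-0.82, adjusted p = 0.00201) and Mx1, an antiviral protein. Mx1 was not detected in castrated males and was at least 1.62-fold lower (adjusted p = 0.0296). On array 2 alone 3 mast cell and granulocyte markers, 4 genes of MHC class II presentation and 6 complement and chemokine genes were called higher.

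**Figure D4:**
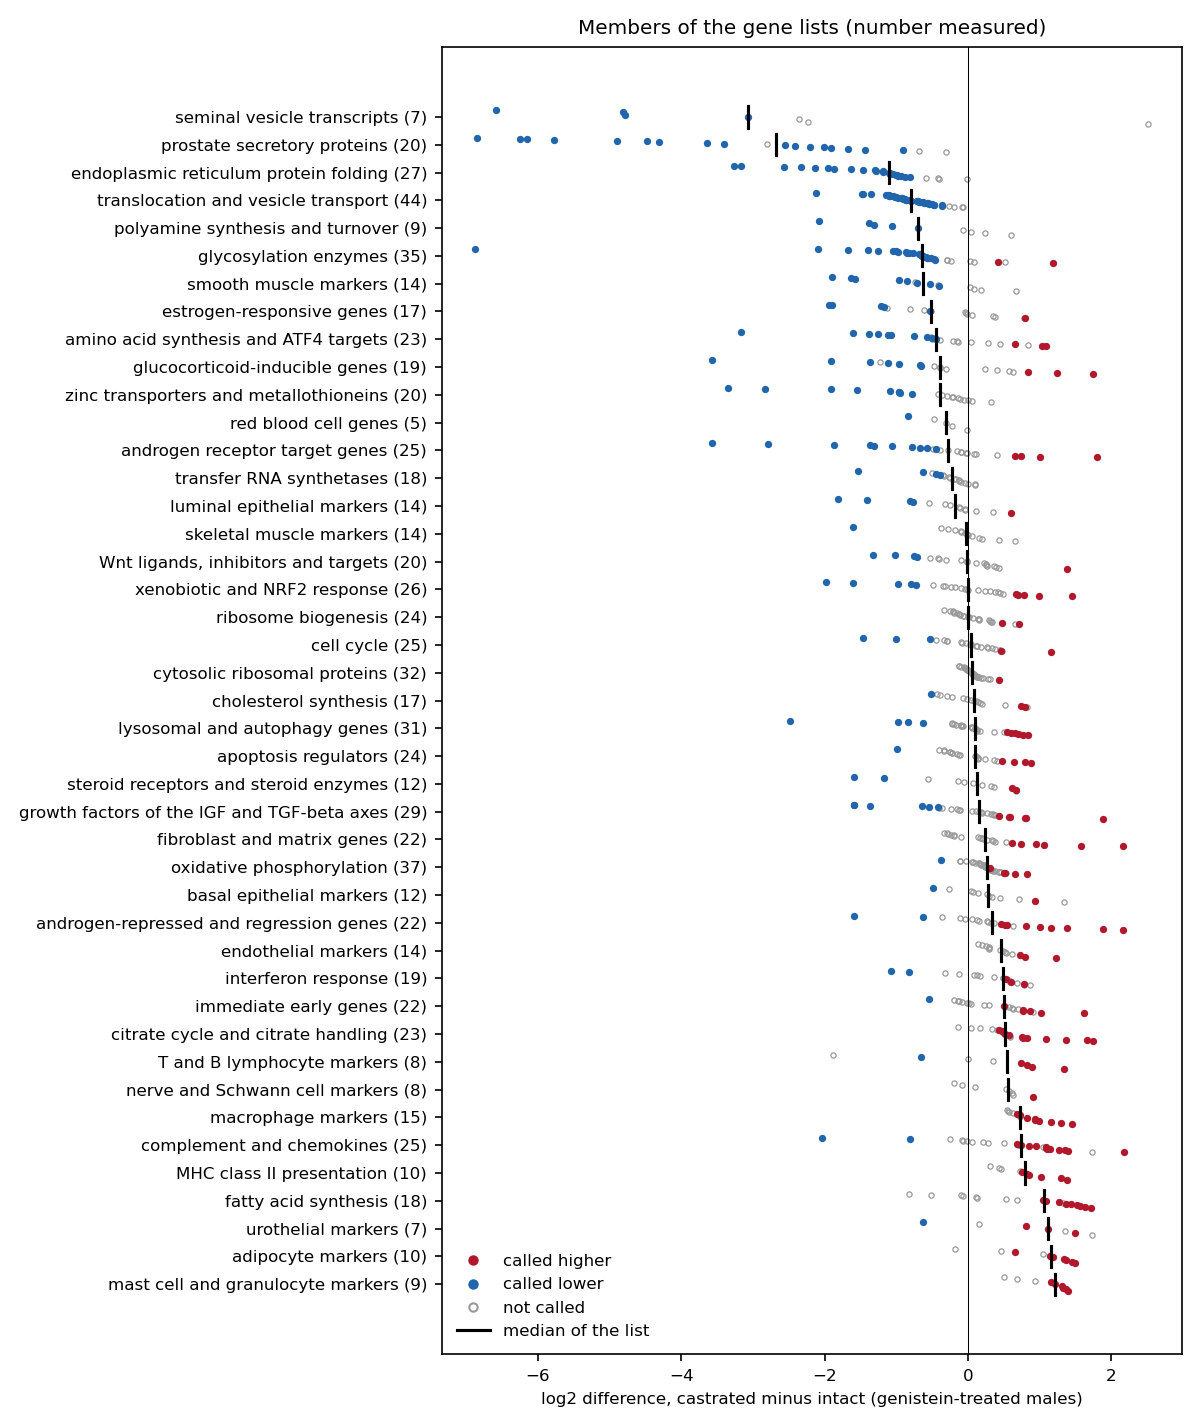
Log2 difference, castrated minus intact genistein-treated males (horizontal axis), of every measured member of 43 gene lists (rows, with the number measured), red where called higher, blue where called lower and open grey where not called, with the list median as a black bar. Secretory proteins, seminal vesicle transcripts and ER folding genes have the lowest medians, and mast cell, adipocyte and urothelial markers the highest.

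Genes of proliferation, death and lysosomes were called in both directions, where 22.1% of all genes were called. Of 25 cell cycle genes 3 fell and 2 rose, with a median of 0.04, and 0.01 on castrated array 2 alone. The thymidine kinase Tk1 differed by -1.47 (SE 0.26, adjusted p = 0.00242) and the factor E2f1 by -1.0 (SE 0.20, adjusted p = 0.00486), while the cell cycle inhibitor Cdkn1a rose (1.16, SE 0.25, adjusted p = 0.00626). Of 24 apoptosis regulators 4 rose and 1, the death receptor Fas, fell (-0.98, SE 0.19, adjusted p = 0.00381). The risers included Bid (0.88) and Bbc3 (0.65), which promote cell death, and the 3 probes of Bbc3 ranged from -0.16 to 0.65. Of 31 lysosomal and autophagy genes 6 rose and 4 fell, and the aspartic protease Ctse, with the largest fall at -2.49 (SE 0.14, adjusted p = 9.72e-07), had other probes up to 0.42.

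Signalling genes changed in both directions, and the counts of this paragraph stand against 11.2% of all genes higher and 10.9% lower. Of 22 immediate early genes 6 rose and 1 fell, and Egr1, a transcription factor induced by many stimuli, read 10.96, 11.06 and 11.50 in castrated males, against 9.61, 8.98 and 10.06 in intact males (1.62, SE 0.33, adjusted p = 0.0049). The median of the 22 was 0.51, and 0.38 on castrated array 2 alone. Of 19 glucocorticoid-inducible genes 7 fell and 3 rose, and Fkbp5, Mt2 and Pdk4, given above, belong to this list too. Sgk1, a salt-regulating kinase, read 11.46, 13.04 and 11.80 in castrated males, against 13.32, 13.49 and 13.57 in intact males, a difference of -1.36 (SE 0.31, adjusted p = 0.00846) that was -0.42 on array 2 alone. Of 29 genes of the IGF and TGF-beta axes 6 rose and 6 fell, with the ligand Bmp7 at -1.59 (SE 0.20, adjusted p = 0.000337) and the epidermal growth factor Egf at -1.37 (SE 0.22, adjusted p = 0.00151). Of 20 Wnt genes 4 fell and 1 rose, a total near the 22.1% of all genes called, with the Wnt inhibitor Wif1 at -1.33 (SE 0.20, adjusted p = 0.000778). Of 26 xenobiotic and oxidative stress genes 5 rose and 5 fell, with the secreted peroxidase Gpx3 at -1.98 (SE 0.19, adjusted p = 4.64e-05) and the glutathione transferase Gstt1 at 1.45 (SE 0.14, adjusted p = 4.47e-05).

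Castration in males given vehicle was measured with other samples on these chips, and shows how far the castration difference varied with genistein. There 1713 genes were called higher (11.1%) and 1546 lower (10%). Of the 1722 genes called higher 1664 had the same sign there, and of the 1679 called lower 1635 did. The share over all genes is not given here. Both castrated groups lay on 1 chip and both intact groups on the other, so a shared sign cannot be told apart from a chip difference. Aqp8, a water channel, read 5.43, 4.91 and 5.26 in castrated genistein males, against 7.54, 7.82 and 7.04 in intact genistein males (-2.27, SE 0.21, adjusted p = 3.13e-05), and its difference with vehicle was -0.82. The interaction, genistein difference minus vehicle difference, was -1.45 (SE 0.29, adjusted p = 0.5). In limma's interaction test 0 of 15406 genes passed (0%), 1122 genes (7.28%) had an unadjusted p under 0.05, and the lowest adjusted p was 0.153. Without castrated genistein array 2, however, 79 genes passed. The median SE of an interaction was 0.24 log2 units. A p above the threshold does not show that castration acted alike with genistein and with vehicle. The genes with the lowest interaction p were Fabp6, Washc5 and Angptl8 on the higher side and Cpsf4l, Hoxb4 and Fancg on the lower side. Angptl8, a circulating regulator of lipoprotein lipase, had a castration difference of 1.44 with genistein and -1.15 with vehicle (interaction 2.59, SE 0.56, adjusted p = 0.5). Hoxb4, a homeobox gene, had 0.26 with genistein and 2.29 with vehicle (interaction -2.03, SE 0.33, adjusted p = 0.287).

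**Figure D5:**
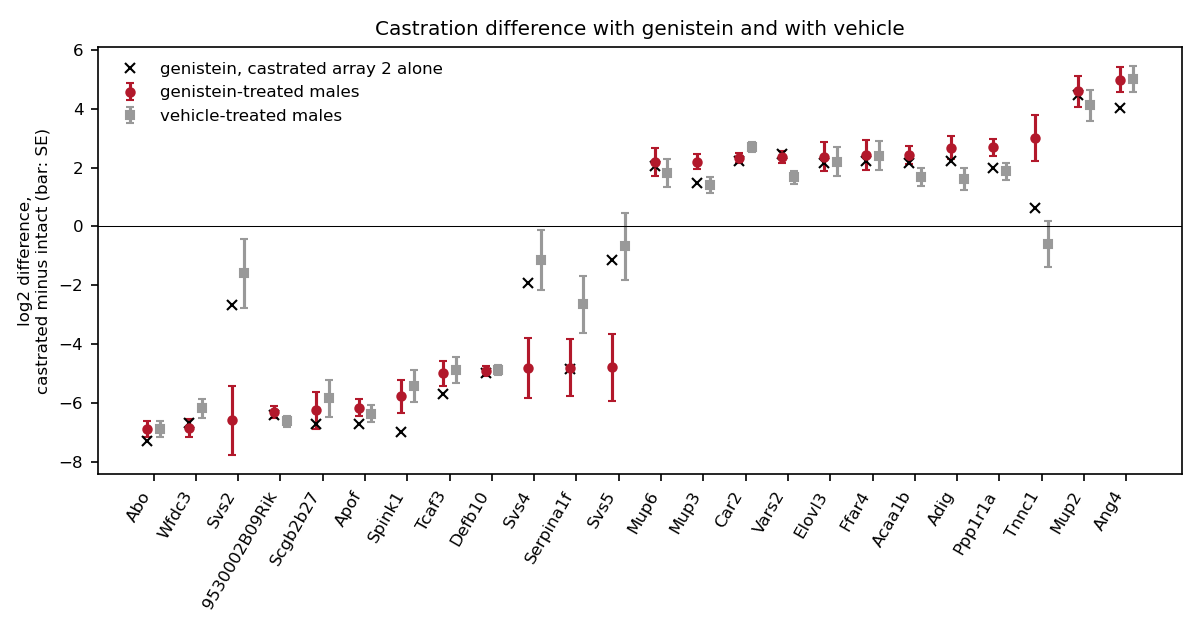
Log2 difference, castrated minus intact (vertical axis), of the 24 genes with the largest differences, for genistein-treated males (red circles) left of vehicle-treated males (grey squares), with bars for 1 SE and crosses for castrated genistein array 2 alone. Most genes have near values in both treatments; Svs2, Svs4, Svs5 and Tnnc1 lie farthest apart, and for these the cross lies nearer to the vehicle value than the red circle does.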

How the data were processed

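Transcript levels of mouse prostates were measured on Illumina bead arrays from biotin-labelled RNA. The authors deposited a table with a linear average bead intensity for 45259 probes on each array, not background-subtracted or normalized, as the values show. A deposited detection p-value stands beside each intensity, with its method not given in the sources used here. The submitters' processing notes name BeadStudio, with no version. The authors' processed intensity values of the same arrays, used as an alternative, are linear, reach down to -21.5 and have array medians of 9.0 to 9.1; how they were scaled and centred is unknown.

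In R 4.3.3 with limma 3.58.1, the background of the 12 arrays of the genistein experiment was estimated from the detection p-values and corrected by normexp with an offset of 16, followed by quantile normalization and log2. Gene symbols came from the platform annotation, with 34872 probes of 1 symbol, 18 of several and 10369 of none. The brightest kept probe stood for a gene, which set 6926 probes aside, and unnamed probes were tested under their own identifier. All 12 arrays entered 1 limma fit (lmFit, eBayes, two-sided) with 4 group means and 8 residual degrees of freedom. P-values were adjusted by Benjamini-Hochberg over all 15406 genes, with a threshold of 0.05. Genes undetected on all arrays of a group are given as bounds against the lowest detected signal. The tests were tried on simulated data.

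The genes named are the 12 with the largest called and non-overlapping difference in each direction, up to 4 called members of each list with the largest difference, and a few named at the outset. Uncalled members, Elf3, Cd8b1 and genes so marked were chosen after their values were seen. The members and the 43 lists were chosen with earlier results of these data known, and no list was tested as a set. Promoters came from RefSeq tables. Alternatives changed the normalization, background, source of values, filter, probes, arrays, weights, prior and replicates; the number of arrays limits the precision.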

Additional observations from a re-analysis of the deposited data

Results flagged for a closer look

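For 4 genes among those with the lowest interaction p, all 3 castrated genistein arrays lay on one side of all 3 intact genistein arrays, and all 3 castrated vehicle arrays on the opposite side of all 3 intact vehicle arrays. None of them passed the interaction test. The values below are the genistein difference minus the vehicle difference, in log2 units.

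Fabp6, a bile acid binding protein of the gut, had a castration difference of 0.31 with genistein and -1.30 with vehicle, and an interaction of 1.60 (SE 0.26, adjusted p = 0.287). Washc5, a subunit of the WASH complex of endosomes, had 0.49 with genistein and -0.57 with vehicle, and an interaction of 1.06 (SE 0.21, adjusted p = 0.5). Cpsf4l, related to a factor of messenger RNA cleavage, had -0.34 with genistein and 1.13 with vehicle, and an interaction of -1.47 (SE 0.20, adjusted p = 0.153). Fancg, a DNA repair protein of the Fanconi anaemia pathway, had -0.52 with genistein and 0.34 with vehicle, and an interaction of -0.86 (SE 0.16, adjusted p = 0.5). Fancg was not detected on any castrated genistein array, and its levels there have only a bound.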

How the results depend on the processing

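The count of 3401 called genes was between 2216 and 3358 when any 1 of the 6 arrays was left out, with the lowest value without intact array 2, and 839 without castrated arrays 1 and 3, where a lone castrated array was assumed to vary like the other groups. Under the other settings it was 2689 with only the 6 arrays compared (4 residual degrees of freedom), 2918 with median scaling, 3284 on the authors' values, 3121 with no detection filter, 3338 with both experiments normalized together, 3615 with a strict filter and 3686 without background correction, and 3327 to 3596 with probes averaged per gene, array weights or a trended prior. With every kept probe tested it was 4527 of 22332 (20.3%). Median scaling gave 42.4% of calls on the higher side, against 50.6% in the reported comparison. Replicate numbers also mark the position on the chip, and same-numbered castrated and intact arrays had correlations of deviations of -0.014, -0.071 and 0.029, so they share only a number. With the replicate number as a block the count was 2986. No gene passed the interaction test in the reported comparison; 1 did on the authors' values, and leaving out 1 array gave 0 to 79, with 79 without castrated genistein array 2 and 3 without intact genistein array 1. The difference of Hoxb13 changed sign on the authors' values (0.093), without castrated array 3 (0.059) and without castrated arrays 1 and 3 (0.29), and that of Esr1 without castrated array 3 (-0.12), without intact array 1 (-0.06) and without castrated arrays 1 and 3 (-0.30). Over the settings that left out 1 array, Hoxb13 ranged between -0.33 and 0.059 and Esr1 between -0.12 and 0.26. The cause of these changes was not tested. All 164 named called genes kept their direction under the alternatives that gave a value, 19 for each but Akr1c18, which had 17, and 76 stayed called under each, and 42 lost the call only where castrated array 2 stood alone. Lists with a median near 0 (ribosome biogenesis, Wnt, xenobiotic, skeletal muscle, ribosomal proteins, luminal, lysosomal, red blood cell) had medians of the other sign under 1 to 7 of them. Signal near background limits Hoxb13, Esr2 and genes undetected in a group.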
